A study of Mus musculus with 6 samples.

Results

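The 45 genes described here encode the non-collagen part of the extracellular matrix of skeletal muscle: basement membrane proteins, elastic fibre proteins, adhesive and matricellular proteins, proteoglycans, matrix adaptors, and the enzymes and chaperones that mature and crosslink collagen and elastin. They were chosen by name, and all 45 were found by gene symbol among the 14016 genes of the deposited table. Because the list was drawn up with that table known, their presence is not a result. Collagens were left out.

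Muscle matrix forms distinct layers. Laminin trimers, nidogens and the heparan sulfate proteoglycan perlecan build the basement membrane that wraps each fibre and capillary. Around it lies an interstitial matrix of collagen fibrils, whose growth is set by small leucine-rich proteoglycans and whose crosslinks are made by lysyl oxidases, together with elastic fibres, in which elastin is laid onto fibrillin microfibrils with the help of fibulins. Matricellular proteins such as SPARC, tenascin-C and the thrombospondins carry little of the load and are known for their rise in healing tissue.

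RNA was measured by bulk sequencing of quadriceps muscle 7 days after volumetric muscle loss, a surgical removal of part of the muscle, in 3 WT and 3 GATA-1 mutant mice. By the study's methods, WT mice were adult females of the C57BL/6 strain. The mutant is the ΔdblGATA line, which carries a deletion of a GATA site in a Gata1 promoter in every cell. This line is known for its lack of eosinophils, and its age, sex and strain background were not given in the sources used here. Mice of both genotypes had the control injury, which by the study's methods was filled with sterile saline and held no implant. Neither uninjured muscle nor muscle treated with decellularized ECM is therefore part of these data. The only level used here is the authors' mean log2 CPM of each gene, read here as a mean over all libraries of both genotypes. It gives no value per mouse and no SD, the depth of the libraries is unknown, and the genotypes cannot be told apart in it, so what follows is a description of levels in injured muscle with no test between genotypes.

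The tissue label was checked against marker genes. All 8 markers of skeletal muscle fibres were listed, and Acta1, the actin of the sarcomere, had a mean of 14.30 log2 CPM. All 5 fibroblast markers were listed too, led by Dpt, which encodes dermatopontin, at 7.85 log2 CPM, as were the 3 endothelial and the 2 tenocyte markers. Macrophage markers Csf1r and Cd68 were listed at 6.15 and 5.05 log2 CPM, whereas Adgre1 was not listed. None of 5 eosinophil markers (Epx, Prg2, Siglecf, Ccr3 and Il5ra) was listed, nor was Gata1, and the mutant label therefore has no check from its own gene here. In RNA from whole muscle, fewer cells of a type and less RNA per cell cannot be told apart.

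Levels of different genes were compared per length. A long transcript yields more reads than a short one at the same number of molecules, so the log2 of the longest coding transcript in kb was subtracted from the mean log2 CPM of each gene, and the result is referred to as the per-length level (log2 CPM per kb). The rank correlation (Spearman rho) of transcript length with mean log2 CPM was 0.059 over listed genes and 0.050 over the members. With the per-length level it was -0.295 and -0.461, so longer transcripts tended to have lower per-length levels. The members had a median per-length level of 4.68, against 2.28 for the 13946 listed genes with a known length. Of the 45 members, 15 lay in the upper 10% of all these genes, which began at 5.22, 25 lay between the median and that range, and 5 lay below the median. Of these 15, 8 also lay in the upper 10% with the median coding transcript, with the coding length and among genes with a mean of at least 1 log2 CPM, and these were Sparc, Bgn, Serpinh1, Thbs4, Fn1, Aspn, Mfap5 and Mfap4. The place of the other members near that boundary changed with the setting. The 48 listed genes of a second list of 52 matrix glycoproteins and proteoglycans, which are not members, had a median of 1.82 and 6 of them lay in the upper 10%. Postn, which encodes periostin, and Dcn, which encodes decorin, led that list with per-length levels of 8.22 and 8.07, and Cilp followed at 6.15. At its low end stood Tnr (-5.96), Lama1 (-5.05) and Lamc3 (-3.31), and Matn1, Omd, Spock1 and Spock3 were not listed. No test was made of these medians, since the members were chosen with the data known.

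**Figure D1:**
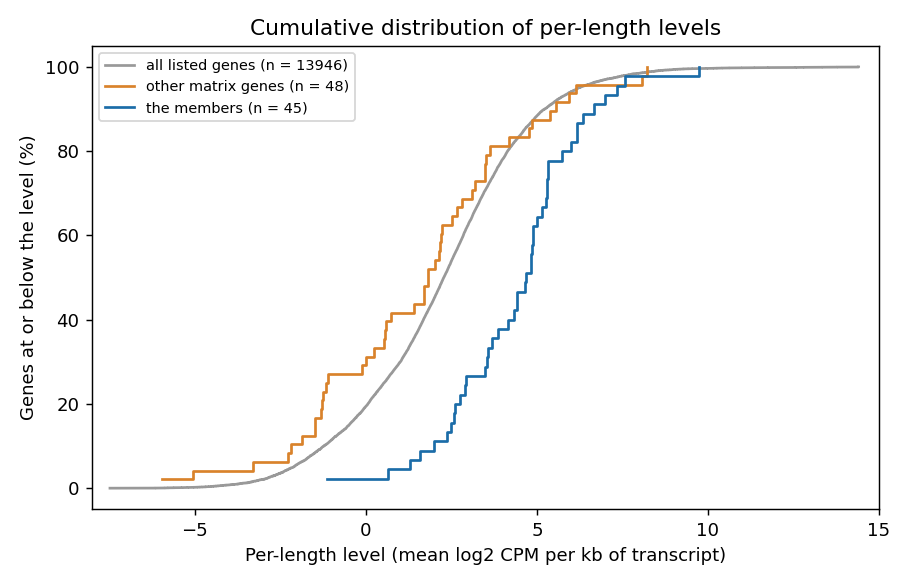
Cumulative share of genes (vertical axis, %) at or below each per-length level (horizontal axis, mean log2 CPM per kb of transcript) for all 13946 listed genes with a length, 48 other matrix genes and the 45 members. The curve of the members lies to the right of that of all genes, with medians of 4.68 and 2.28, while the other matrix genes have a median of 1.82.

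Within the members the levels spanned a wide range. Sparc, whose protein binds collagen and calcium, was the most abundant by either measure, with 10.95 log2 CPM and a per-length level of 9.75. Only 51 of the listed genes had a higher per-length level. On the linear scale it reached 861 CPM per kb and made up 35.2% of the sum over all 45 members, and the 10 highest members together made up 73.0%. At the other end was Fbln5, which encodes the elastic fibre adaptor fibulin-5, with 1.40 log2 CPM and a per-length level of -1.15. Its mean was still above 1 CPM, whereas 1198 listed genes had a mean under 0 log2 CPM.

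Promoter windows of the most and the least abundant member are shown because they mark the ends of the range of levels. Each runs 250 bases up to the annotated start, 5′ to 3′ along the gene, and was taken from RefSeq (GRCm38.p6). Capitals mark any of 5 short motifs on either strand: the TATA box, spelled TATAAA here, the box spelled CCAAT, the GC box, spelled GGGCGG, the AP-1 motif, spelled TGANTCA, and the TEAD motif, spelled GGAATG.
Sparc, chr11:55420081-55420330, minus strand: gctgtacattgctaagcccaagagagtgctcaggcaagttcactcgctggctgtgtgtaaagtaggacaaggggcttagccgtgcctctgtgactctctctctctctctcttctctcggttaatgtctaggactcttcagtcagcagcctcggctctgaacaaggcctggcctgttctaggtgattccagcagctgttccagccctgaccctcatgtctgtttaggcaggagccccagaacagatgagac
Fbln5 outer start, chr12:101819120-101819369, minus strand: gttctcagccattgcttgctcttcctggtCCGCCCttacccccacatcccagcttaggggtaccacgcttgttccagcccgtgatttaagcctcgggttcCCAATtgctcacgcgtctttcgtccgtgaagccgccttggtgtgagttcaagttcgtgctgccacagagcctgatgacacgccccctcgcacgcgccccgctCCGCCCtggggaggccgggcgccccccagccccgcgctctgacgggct
Fbln5 inner start, chr12:101818485-101818734, minus strand: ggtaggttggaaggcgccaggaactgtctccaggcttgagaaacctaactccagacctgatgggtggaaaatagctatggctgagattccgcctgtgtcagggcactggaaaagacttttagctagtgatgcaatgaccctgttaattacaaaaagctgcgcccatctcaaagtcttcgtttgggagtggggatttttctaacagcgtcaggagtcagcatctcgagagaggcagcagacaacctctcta
None of the 5 motifs was found in the Sparc window, which had 54.0% G and C and an observed to expected CpG ratio of 0.220. The outer Fbln5 window held 2 GC boxes and 1 CCAAT, with 65.2% G and C and a ratio of 0.824. No motif was found in its inner window, which had 49.6% G and C and a ratio of 0.395, so Sparc lay between both Fbln5 windows in G and C and below both in CpG ratio.

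**Figure D2:**
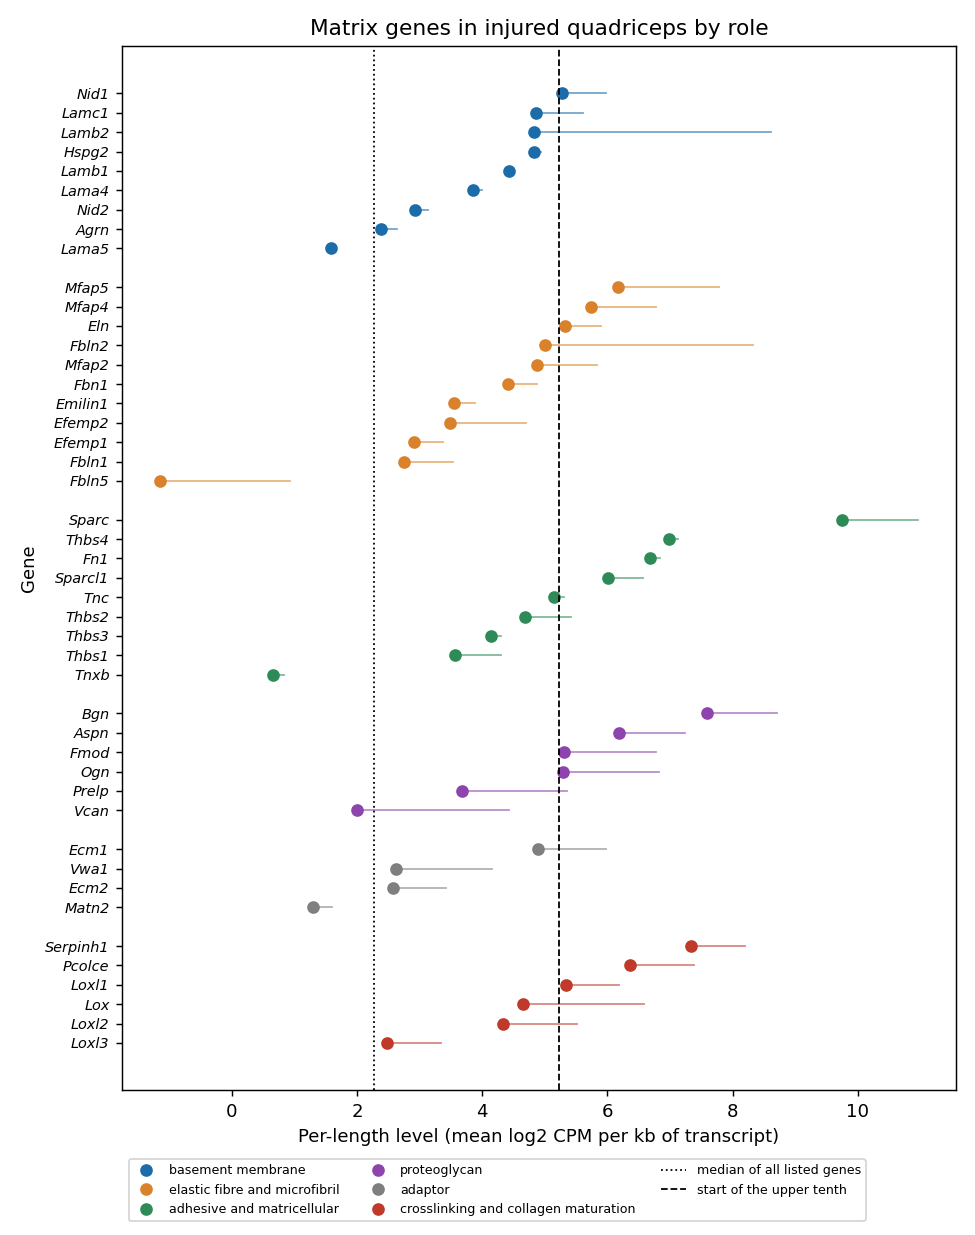
Per-length level (horizontal axis, mean log2 CPM per kb of transcript) of each of the 45 members (vertical axis), grouped by role. Points use the longest coding transcript, thin lines span the values with that length, the median coding transcript and the coding length, and vertical lines mark the median of all listed genes (2.28) and the start of the upper 10% (5.22). Sparc at 9.75 stands apart on the right and Fbln5 at -1.15 on the left.

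Among the 9 basement membrane genes the per-length levels had a median of 4.43 and ranged from 1.59 to 5.28, a 12.9-fold span. Nid1, which encodes the laminin-binding linker nidogen-1, was the highest at 5.28 (7.88 log2 CPM), and its paralog Nid2 was at 2.92 (5.21 log2 CPM), a difference of 2.35 on the log2 scale. Hspg2, the gene of perlecan, had the longest transcript of all members (14187 nt) and the fifth highest mean, 8.65 log2 CPM, but per length it stood in the middle of the list at 4.83. Agrn, the gene of agrin, which clusters acetylcholine receptors at the neuromuscular junction, was at 2.38 (5.24 log2 CPM). Perlecan RNA thus stood 2.44 above agrin RNA on the log2 per-length scale.

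Laminins are trimers of an alpha, a beta and a gamma chain, and the gamma chain gene among the members, Lamc1, was at 4.87 (7.80 log2 CPM). The alpha and the beta chain genes were also summed by class on the linear scale, including those that are not members. The beta chain sum was 51.0 CPM per kb, of which Lamb2 (7.33 log2 CPM, per-length level 4.83) gave 55.9% and Lamb1 (6.96 and 4.43) gave 42.3%. This near balance rested on the length used: several annotated Lamb2 transcripts are short, and with the median coding transcript (409 nt) Lamb2 gave 94.3% of the beta chain sum, whereas with the coding length it gave 55.4% and Lamb1 42.2%. The alpha chain sum was lower, at 20.9 CPM per kb. Lama4, the alpha chain known from blood vessels and peripheral nerve, gave 68.9% of it (6.45 log2 CPM, per-length level 3.85), and Lama5 (5.10 and 1.59) gave 14.4%. Lama2, the alpha chain of the muscle fibre's own basement membrane and no member, gave 15.6%. The values of Lama4 and Lama2 differed by 2.14 on the log2 per-length scale, and by 0.96 when the median coding transcript was used instead.

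**Figure D3:**
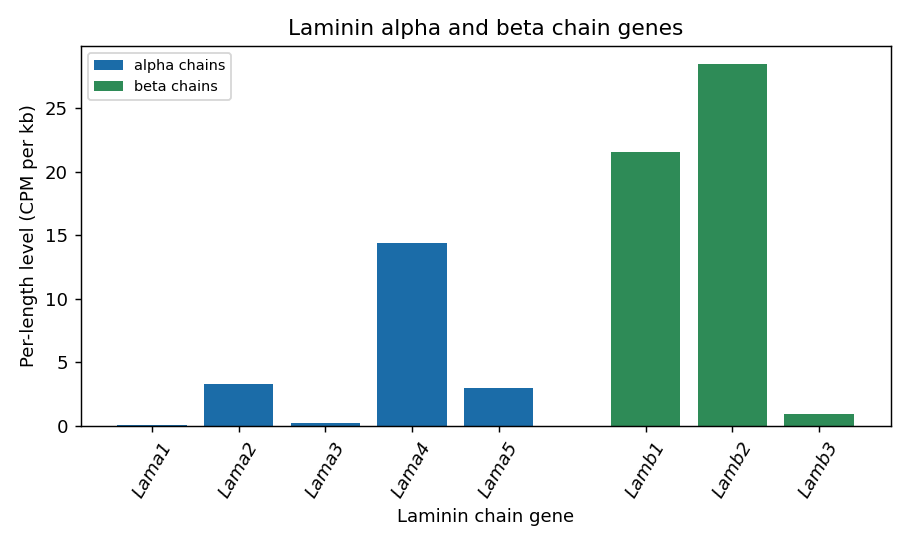
Per-length level on a linear scale (vertical axis, CPM per kb of the longest coding transcript, from the authors' mean) of the 5 alpha and 3 beta laminin chain genes (horizontal axis), coloured by chain class. Lama4 is the tallest of the alpha chains at 14.4 CPM per kb, and Lamb1 and Lamb2 stand at 21.5 and 28.5 CPM per kb.

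The 11 elastic fibre and microfibril genes had a median per-length level of 4.41. Mfap5 and Mfap2 encode the paired microfibril-associated glycoproteins MAGP-2 and MAGP-1, and Mfap5 was the higher of them, at 6.17 (6.76 log2 CPM) against 4.88 (4.98 log2 CPM). Mfap4, whose protein binds fibrillin and elastin, stood between them at 5.75 (6.53 log2 CPM). Eln, the gene of elastin itself, was at 5.33 (7.27 log2 CPM). It lay in the upper 10% of all genes by the longest coding transcript, and below it by the median coding transcript, by the coding length and among genes with a mean of at least 1 log2 CPM. Fbn1, which encodes the microfibril backbone fibrillin-1, was above Eln by 0.72 in log2 CPM but below it by 0.92 per length (7.99 log2 CPM, per-length level 4.41), so the order of this pair depended on the length correction. Emilin1, which encodes a glycoprotein at the surface of elastin, was at 3.55 (5.49 log2 CPM).

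The fibulin genes, whose products bridge elastin and microfibrils, differed widely among themselves. Fbln2 was at 5.00 (7.26 log2 CPM) and Fbln1 at 2.75 (4.62 log2 CPM). Efemp2, the gene of fibulin-4, which brings lysyl oxidase to elastin, was at 3.48 (4.88 log2 CPM), and Efemp1, the gene of fibulin-3, at 2.91 (3.94 log2 CPM). Fbln2 stood 6.15 above Fbln5 on the log2 per-length scale, a 70.8-fold difference in level. The size of this difference rested on the isoform assumed, since the median coding transcript of Fbln2 in the annotation has 477 nt and gave a difference of 8.97. With the coding length in place of the transcript length it was 4.46, and Fbln5 still had the next to lowest level of the 45, above only Tnxb.

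Among the adhesive and matricellular genes, 4 of 9 lay in the upper 10%. Fn1, the gene of fibronectin, the provisional matrix protein that cells grip through integrins, had the next highest mean after Sparc, 9.73 log2 CPM, with a per-length level of 6.67. Sparcl1, a paralog of Sparc, was at 6.003 (7.47 log2 CPM), which is 3.75 below Sparc. Tnc, the gene of tenascin-C, a marker of healing tissue and of tendon, was at 5.14 (7.97 log2 CPM). Its relative Tnxb, which encodes tenascin-X of resting connective tissue, was the next to lowest of all members at 0.65 (4.26 log2 CPM), and the gap between both tenascins was 4.49 on the log2 per-length scale.

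The thrombospondin genes encode a pair of trimeric proteins (Thbs1 and Thbs2), known as inhibitors of blood vessel growth, and a pair of pentameric ones (Thbs3 and Thbs4). Thbs4, known from tendon and muscle, led them at 6.98 (8.66 log2 CPM), the fourth highest of the 45. Thbs2 was at 4.68 (7.24 log2 CPM), Thbs3 at 4.15 (5.82 log2 CPM) and Thbs1 at 3.57 (6.12 log2 CPM). Thbs4 exceeded Thbs1 10.6-fold per length.

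**Figure D4:**
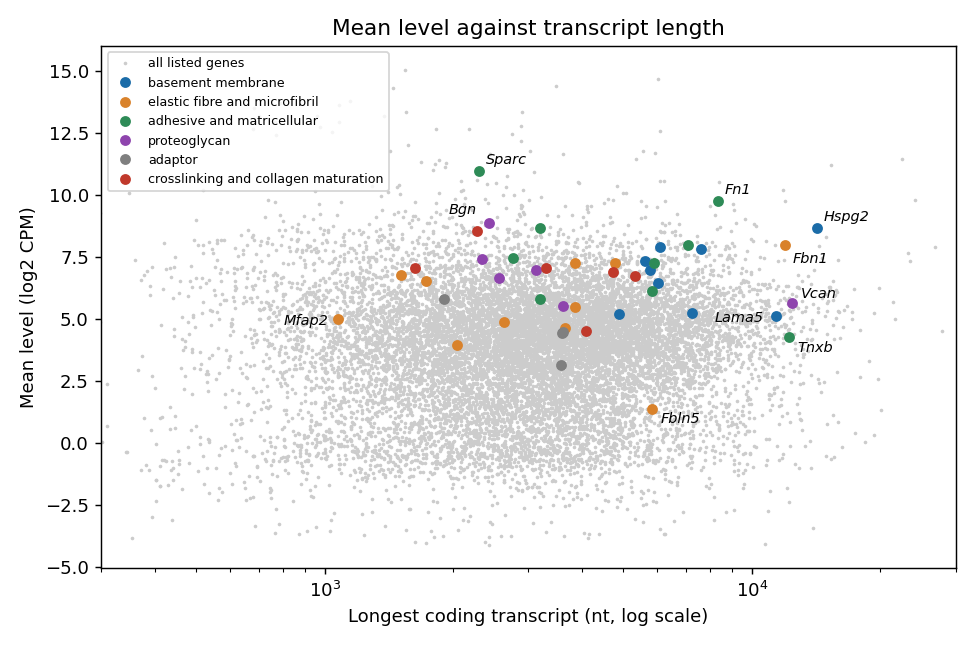
Mean level over all libraries (vertical axis, log2 CPM) against the length of the longest coding transcript (horizontal axis, nt, log scale) for listed genes within the plotted lengths in grey and the 45 members coloured by role. Hspg2, Vcan, Tnxb, Fbn1 and Lama5 have the longest transcripts of the members, and Sparc at 10.95 log2 CPM has the highest mean of the members.

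Of the 6 proteoglycan genes, 4 lay in the upper 10%, each of them a small leucine-rich proteoglycan. Bgn, the gene of biglycan, which binds collagen and signals through toll-like receptors, was at 7.59 (8.86 log2 CPM), the highest after Sparc. Aspn, the gene of asporin, was at 6.19 (7.41 log2 CPM), Fmod, the gene of fibromodulin, at 5.31 (6.95 log2 CPM) and Ogn, the gene of osteoglycin, at 5.30 (6.66 log2 CPM). Prelp was lower at 3.68 (5.53 log2 CPM). Vcan, which encodes the large aggregating proteoglycan versican, was at 2.00 (5.64 log2 CPM), 5.59 below Bgn. Its value rested on the isoform assumed: the longest transcript has 12427 nt, and with the median coding transcript its per-length level was 4.44.

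Some members of this class are neighbours in the genome. In the RefSeq gene order of GRCm38.p6, Prelp and Fmod lie next to each other on chromosome 1, and on chromosome 13 Ecm2, Aspn, Omd and Ogn follow one another in the order of their starts. Exons of Cenpp, a gene on the opposite strand, overlap 7 bases of the Aspn transcript. Mean levels in the chromosome 13 cluster differed: Aspn and Ogn were at 6.19 and 5.30, Ecm2 at 2.58 (4.43 log2 CPM), and Omd, the gene of osteomodulin between Aspn and Ogn, was not listed. Aspn and Ogn differed by 0.89, and Ogn stood 2.72 above Ecm2. The promoter windows of the 3 listed genes of the chromosome 13 cluster and of Bgn are shown to set this spread beside the sequence, with motifs in capitals as above.
Ecm2, chr13:49504560-49504809, plus strand: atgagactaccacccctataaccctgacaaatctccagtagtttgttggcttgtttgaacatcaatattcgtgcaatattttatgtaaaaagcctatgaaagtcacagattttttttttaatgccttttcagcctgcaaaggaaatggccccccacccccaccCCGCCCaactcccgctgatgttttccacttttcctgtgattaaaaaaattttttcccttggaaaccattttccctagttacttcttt
Aspn, chr13:49544193-49544442, plus strand: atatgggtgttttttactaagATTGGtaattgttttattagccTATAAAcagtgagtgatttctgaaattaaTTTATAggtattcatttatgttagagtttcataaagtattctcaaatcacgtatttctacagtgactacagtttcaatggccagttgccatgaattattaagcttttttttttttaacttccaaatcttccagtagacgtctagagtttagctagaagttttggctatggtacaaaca
Ogn, chr13:49607765-49608014, plus strand: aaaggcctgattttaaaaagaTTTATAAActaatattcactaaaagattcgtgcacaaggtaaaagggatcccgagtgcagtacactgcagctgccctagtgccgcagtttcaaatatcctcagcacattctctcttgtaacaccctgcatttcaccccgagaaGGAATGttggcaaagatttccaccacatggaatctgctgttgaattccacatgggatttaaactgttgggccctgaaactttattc
Bgn, chrX:73483351-73483600, plus strand: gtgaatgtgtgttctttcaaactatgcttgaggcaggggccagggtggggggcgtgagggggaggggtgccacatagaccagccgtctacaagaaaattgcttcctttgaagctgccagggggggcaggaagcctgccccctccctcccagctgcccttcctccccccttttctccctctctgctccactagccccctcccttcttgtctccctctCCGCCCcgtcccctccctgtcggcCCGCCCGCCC
The Aspn window was the poorest in G and C among the windows of the members, at 30.0%, and held TATAAA on each strand and 1 CCAAT. On both strands of the Ogn window TATAAA was present as well, as an overlapping pair, and GGAATG was found once. Counted back from the annotated start, the nearest copy of TATAAA began at position -178 in Aspn and at -227 in Ogn. Ecm2 had 1 GC box and no TATAAA, with 40.0% G and C. The Bgn window carried 3 GC boxes, a pair of them overlapping within the last 10 bases, and 64.4% G and C.

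Over the 30 members with a window in that table, 37 windows were read, since 6 genes have more than 1 start. The median observed to expected CpG ratio was 0.439, against 0.693 for the 13259 windows of listed genes and 0.737 for those of listed genes in the upper 10% per length. It lay above the median of all 32841 windows, which was 0.374. Roles differed, with medians of 0.62 over the 7 basement membrane windows and 0.32 over the 6 proteoglycan windows. The ratio was below the median of listed genes in 32 of the 37 windows and above it in 5, which belong to Hspg2, Efemp2, Agrn and Fbln5. Share of G and C was close to that of listed genes, with medians of 58.8% and 59.6%, against 52.4% over all windows. TATAAA was found in 6 of the 37 windows of the members (16.2%), in 6.89% of those of listed genes and in 12.4% of all 32841 windows. The members with it were Aspn, Ecm1, Ogn, Thbs2 and Tnc, and Tnc had it in more than 1 window. Only in Ecm1 did it lie 25 to 45 bases before the start. A GC box was found in 25 of the 37 windows of the members (67.6%), in 55.4% of those of listed genes and in 32.7% of all windows. In the same order, CCAAT was found in 9 (24.3%), 34.6% and 33.9%. TGANTCA was found in 3 (8.11%), 4.83% and 6.75%, and GGAATG in 4 (10.8%), 10.8% and 12.6%. A match says only that these letters are present. Windows for Eln, Fn1, Lama4, Lamc1, Lox, Loxl1, Loxl2, Loxl3, Matn2, Mfap4, Mfap5, Nid2, Sparcl1, Thbs1 and Vwa1 were not used here.

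**Figure D5:**
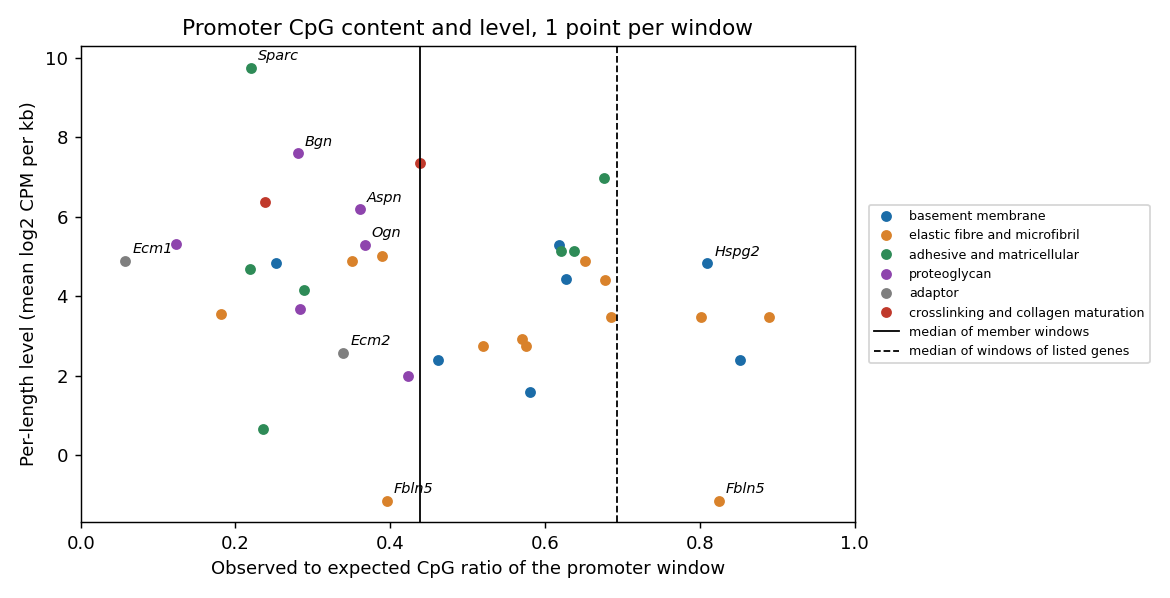
Per-length level (vertical axis, mean log2 CPM per kb) against the observed to expected CpG ratio of the promoter window (horizontal axis, no unit), 1 point for each of 37 windows of 30 members, coloured by role. The median of the windows of the members (0.439, solid line) lies below that of all listed genes (0.693, dashed line). Sparc, Bgn, Aspn and Ogn all lie under 0.4, but so does the low member Tnxb (0.235), and the high member Thbs4 lies at 0.677.

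None of the 4 adaptor genes lay in the upper 10% with the longest coding transcript, but Ecm1 did with the median coding transcript, at a per-length level of 5.98. Ecm1, which encodes a secreted glycoprotein that binds perlecan and other matrix proteins, was the highest at 4.89 (5.82 log2 CPM). Vwa1, which encodes a perlecan-binding protein of basement membranes, was at 2.62 (4.47 log2 CPM), and Matn2, the gene of matrilin-2, was at 1.29 (3.13 log2 CPM). Exons on the opposite strand overlap 25.2% of the Vwa1 transcript, so its value is uncertain.

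The 6 genes of crosslinking and collagen maturation had a median of 4.99, and 3 of them lay in the upper 10%. Serpinh1, which encodes the collagen chaperone HSP47, was at 7.34 (8.53 log2 CPM), the third highest of the 45. Pcolce, whose product enhances the cleavage of procollagen, was at 6.36 (7.06 log2 CPM). Among the lysyl oxidases, which crosslink collagen and elastin, Loxl1 was at 5.33 (7.05 log2 CPM), Lox at 4.65 (6.89 log2 CPM), Loxl2 at 4.33 (6.74 log2 CPM) and Loxl3 at 2.48 (4.51 log2 CPM). The order of Lox and Loxl1 turned with the coding length, where Lox was the higher by 0.40. Loxl3 was the lowest of these 4 with each length used. Loxl4, no member, was lower still at -1.25.

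How far each value belongs to its own gene was read from shared sequence. Of the 45 members, 20 shared no 31-base word of their longest transcript with a transcript of another gene, and 4 shared more than 10%. Loxl2 shared 47.1%. Its partner with the most shared words was Gm21451, itself listed at 1.78 log2 CPM, followed by Gm16867 and Gm27177. For Vwa1 (25.3%), Fbn1 (20.2%) and Loxl3 (11.3%) the words lay mostly in genes on the opposite strand. Tnxb shared 9.81%, and its partner with the most shared words was the partial copy Tnxa. Gm26840 and Atad3aos, which share words with Vwa1, Gm9913, which shares words with Fbn1, and Tnxa were not listed under those symbols. Their absence does not show that they gave no reads. Whether the counting used strand was not given in the sources used here, so reads from the overlapped parts of Vwa1, Fbn1 and Loxl3 and from their partners cannot be told apart. The sequence shared with Gm21451 and Tnxa is a copy, so reads from those parts of Loxl2 and Tnxb are uncertain with or without strand. Most words of each of these genes were its own.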

How the data were processed

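RNA with a poly(A) tail from quadriceps of 3 WT and 3 GATA-1 mutant mice was sequenced in pairs. Per the study's methods, the authors quantified transcripts with kallisto and collapsed them to genes. The authors computed CPM with edgeR, genes had to exceed 1 CPM in 3 or more samples, and values were log transformed and TMM-normalized. Among listed genes, however, the mean went down to -4.08 log2 CPM, and 1198 had a mean under 0. How means this low fit that filter, and the reading as a mean over all libraries, was not resolved here. The labels name builds GRCm39 and mm39, and the transcript index was not given in the sources used here. The deposited table holds for each of 14016 rows (1 without a symbol) a mean log2 CPM over all libraries, used here as the authors' mean, and the authors' own limma comparison of the genotypes (log2 fold change, moderated t, p-value, adjusted p-value and log odds), which was not used. As no value per sample was analysed here, the planned limma test, with its replicates and alternatives, was not made.

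Transcript lengths were taken from GENCODE M21 (GRCm38). Of the rows, 13458 matched on the current symbol and 488 on an older one, which gave 99.5% a length. The per-length level is the mean log2 CPM minus log2 of the longest coding transcript in kb, and percentiles were taken over all 13946 genes with a length. The number of 31-base words shared with other genes was counted on both strands. Promoter windows came from RefSeq (GRCm38.p6). A check on simulated levels used the same lengths to set and to recover them, so it tested the arithmetic only and not the choice of length. Python 3.11.15, numpy and pandas were used. Each member was named with its mean and per-length level, and other matrix genes by the 3 highest and 3 lowest. Loxl4, Lama2, Omd, Cenpp, Tnxa, Gm21451 and the genes not listed were named outside that rule. The members, roles and lists were chosen with earlier results of these data known. Per-length levels were recomputed with the median coding transcript and the coding length.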

Additional observations from a re-analysis of the deposited data

How the results depend on the processing

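All 45 members were matched by current symbol. The count of members in the upper 10% was 15 of 45 among all genes and among protein-coding genes, 14 with the median coding transcript, 11 with the coding length, and 10 among genes with a mean of at least 1 log2 CPM. With the coding length the median per-length level of the members became 5.31, and that of all genes 3.42, because coding lengths are shorter, so that the members stood 1.89 above all genes in place of 2.40. Single members moved by more than 1.5-fold in 10 of 45 cases with the median coding transcript and in 23 of 45 with the coding length. The widest ranges were those of Lamb2 (4.83 to 8.62), Fbln2 (5.00 to 8.33) and Vcan (2.00 to 4.44). The 10 highest members shared 8 of 10 with either alternative length, and 5 of 10 with the order by log2 CPM.

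No paired analysis was possible because the values used are means over all libraries. For the same reason the genotype difference of each member was not run under any alternative, and no mouse was left out. Identity between proteins was not run, since no protein sequences were used here. Neither the depth of the libraries nor the spread between mice is known here, so the precision of every value is unknown. Least is known of the low values, such as that of Fbln5.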
